A study of Mus musculus with 3 samples.

Results

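Elastic fibres and the microfibrils that scaffold them were followed through 10 genes, read by symbol from the 32285 genes of the count matrices. They are the fibrillins *Fbn1* and *Fbn2*, the microfibril-associated genes *Mfap2*, *Mfap4* and *Mfap5*, elastin (*Eln*), the fibulins *Fbln1*, *Fbln2* and *Fbln5*, and *Emilin1*. The question put to each gene was which cells of the mouse diaphragm carry its transcript, how it varies among fibro/adipogenic progenitors (FAPs), and how it differs between diets and genotypes. All 10 genes had UMIs in the data, where a UMI (unique molecular identifier) counts 1 captured transcript.

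The data were 3 single-cell RNA-Seq libraries of mononuclear cells from the costal diaphragm, each made from the pooled cells of 2 male mice after collagenase digestion and removal of dead cells. The WT CD library came from C57BL/6J mice kept on a control diet for 6 months from 2 months of age. The WT HFD library came from mice of the same strain on a high-fat diet (45% of kcal from lipid) over the same period, and the KO HFD library from mice on that diet that carry the whole-body *Thbs1* knockout allele B6.129S2-Thbs1tm1Hyn/J. Cells of all 3 libraries were prepared on a single day. Each group is 1 library, so mice cannot be told apart within it, no difference between groups has a replicate check and no p-value is given. Values are CPM, the UMIs of a gene per 1000000 UMIs summed over the cells of a class, and intervals are exact 95% Poisson intervals that cover counting error only.

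The matrices held 4132 barcodes and 34312860 UMIs in WT CD, 3774 barcodes and 31967976 UMIs in WT HFD, and 4369 barcodes and 36478779 UMIs in KO HFD. Median UMIs per barcode were 7632.5, 8041.5 and 7554 in that order. The libraries shared 7 barcodes (WT CD and WT HFD), 7 barcodes (WT CD and KO HFD) and 2 barcodes (WT HFD and KO HFD) of 12275. Cells were clustered without the 10 genes and without 35 other elastic fibre genes, and clusters were named from fixed markers. FAP-like cells, named from *Pdgfra*, *Pdgfrb*, *Dcn* and *Osr1*, numbered 2224 in WT CD (53.8% of barcodes), 1974 in WT HFD (52.3%) and 2398 in KO HFD (54.9%). Their median depths were 8447, 9172.5 and 8382 UMIs. One FAP-like cluster had the tenocyte marker *Tnmd* among its 10 leading genes and scored alike for both names. After reclustering, 3 FAP clusters (1330 cells) had *Tnmd* among their leading genes, so values are also given without the *Fmod Sfrp2 Tnmd* state, which holds 1188 of these cells, and without all 3 clusters.

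*Thbs1*, the gene disrupted in the knockout, was counted at 136 CPM in WT CD, 202 CPM in WT HFD and 163 CPM in KO HFD over all cells. In FAP-like cells it stood at 193, 233 and 229 CPM. Reads of this assay come from the 3' end of transcripts, which a disruption elsewhere in the gene can leave in place, so these counts do not check the genotype.

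In an elastic fibre, fibrillin molecules line up into beaded microfibrils, and tropoelastin is laid down on them and crosslinked by lysyl oxidases into a core that stretches and recoils. The microfibril-associated glycoproteins encoded by *Mfap2* and *Mfap5* bind fibrillin, *Mfap4* encodes a fibrinogen-domain protein of the fibre, fibulins help to place elastin on the scaffold or bind it there, and EMILIN-1 sits where elastin meets the microfibrils. In muscle such fibres lie in the connective tissue sheaths, in tendon and in vessel walls, and fibroblasts, tendon cells and vascular cells are known to make their parts.

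*Fbln1* (ENSMUSG00000006369, chromosome 15 from 85205949 to 85286535) and *Fbln5* (ENSMUSG00000021186, chromosome 12 from 101746565 to 101819055) led in different cell classes and differed in opposite directions between the diets, as described further on. RefSeq promoter entries matched 6 of the 10 genes, and only these 2 of the 6 had a stretch that overlaps no exon annotated by GENCODE. The 250 bases before their outermost RefSeq start are printed, 5′ to 3′ on the strand of the gene, from RefSeq on GRCm38.p6. They are chr15:85205699-85205948 on the plus strand and chr12:101819120-101819369 on the minus strand. The bases just after the start were found in a GENCODE transcript of the gene for *Fbln1* but in none for *Fbln5*. Capitals mark matches to the GC box GGGCGG, the CCAAT box CCAAT, the TATA box TATAAA and the AP-1 site TGANTCA, each searched on both strands.
Fbln1: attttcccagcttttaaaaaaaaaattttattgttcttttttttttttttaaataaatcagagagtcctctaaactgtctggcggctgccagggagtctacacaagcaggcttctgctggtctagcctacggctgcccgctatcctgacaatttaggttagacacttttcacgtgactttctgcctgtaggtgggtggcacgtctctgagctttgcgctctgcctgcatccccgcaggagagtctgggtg
Fbln5: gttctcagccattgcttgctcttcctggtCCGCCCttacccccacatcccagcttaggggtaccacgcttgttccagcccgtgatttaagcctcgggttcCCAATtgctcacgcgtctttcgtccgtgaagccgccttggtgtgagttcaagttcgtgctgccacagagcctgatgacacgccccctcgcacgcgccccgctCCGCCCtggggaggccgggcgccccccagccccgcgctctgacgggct
The *Fbln5* stretch held 2 GC boxes, read on the opposite strand, and 1 CCAAT box, and none of these overlapped. The *Fbln1* stretch held none of the 4 motifs in these letters. Before a second RefSeq start of each gene it was the other way round, with 1 GC box for *Fbln1* and none of the 4 motifs for *Fbln5*, so the difference between the genes depends on the start. Of 32851 stretches of the same length before RefSeq starts, 32.7% held a GC box, 33.8% a CCAAT box, 12.4% a TATA box and 6.75% an AP-1 site. These matches describe the letters and carry no statement on binding.

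Among 14 cell classes with at least 10 cells in every library, FAP-like cells had the highest mean CPM for 7 of the 10 genes, *Fbn1*, *Fbn2*, *Mfap2*, *Mfap5*, *Eln*, *Fbln2* and *Emilin1*. The background share was 6.52% of 11572 genes with at least 300 UMIs, a minimum that *Fbn2* did not reach and the other 6 did. *Mfap4* was highest in tenocyte-like cells (background 5.12%), *Fbln1* in mesothelial-like cells (10.3%) and *Fbln5* in endothelial-like cells (8.15%). FAP-like cells were also the most numerous class, with 57.8% of the UMIs of all genes. They carried 94.9% of all *Fbn1* UMIs, 93.7% of *Fbn2*, 93.2% of *Mfap2*, 96.0% of *Mfap4* and 96.0% of *Mfap5* UMIs. Their shares were 91.9% for *Eln*, 91.3% for *Fbln1*, 92.1% for *Fbln2*, 85.3% for *Fbln5* and 85.7% for *Emilin1*.

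**Figure D1:**
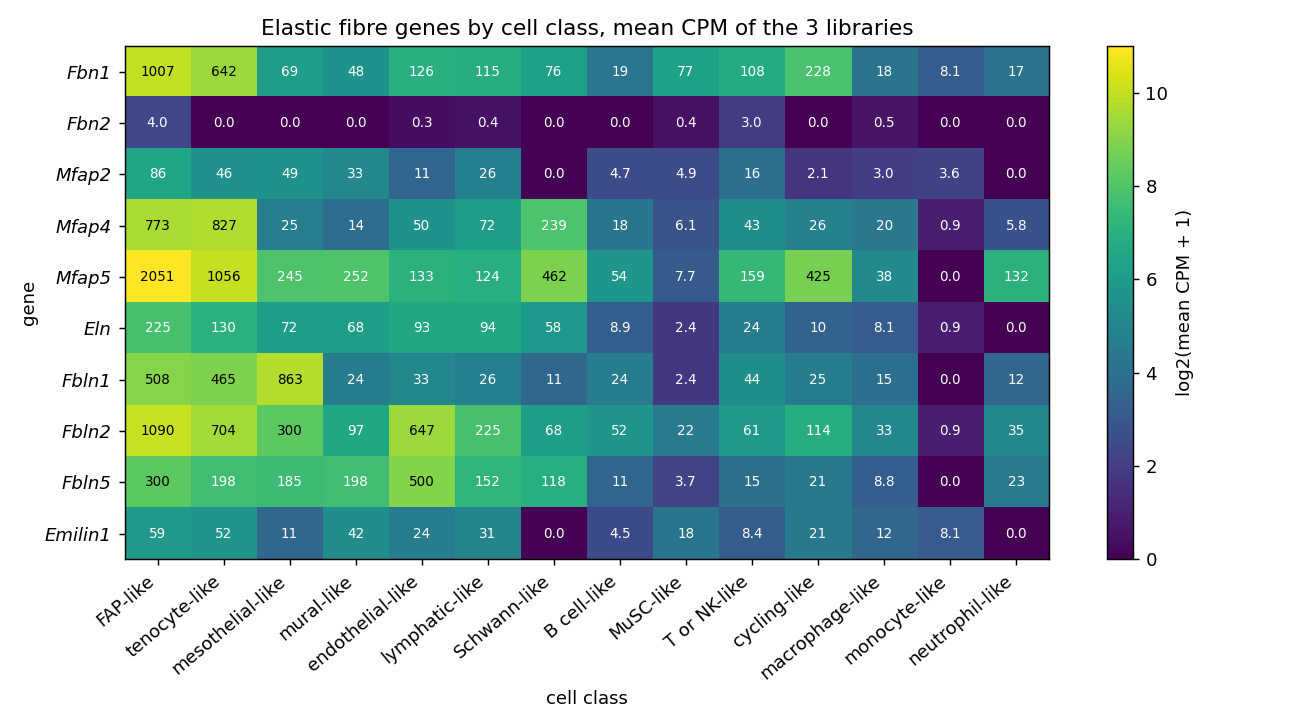
Mean CPM of the 3 libraries for each of the 10 genes (rows) in 14 cell classes (columns), with colour on a log2(mean CPM + 1) scale and the mean CPM printed in each cell. Read along a row, FAP-like cells lead for 7 genes, while *Fbln1* peaks in mesothelial-like cells (863 CPM) and *Fbln5* in endothelial-like cells (500.03 CPM).

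*Fbn1* (ENSMUSG00000027204, chromosome 2 from 125300594 to 125507993), the main fibrillin of adult tissue, stood in FAP-like cells at 785 CPM in WT CD, 1242 CPM in WT HFD and 993 CPM in KO HFD. Tenocyte-like cells, a cluster of 66 cells led by *Chad*, *Fmod* and *Scx*, came next at 386, 355 and 1184 CPM. The ranges of these classes overlapped, through the KO HFD library alone. There 38.3% of the 298 tenocyte-like *Fbn1* UMIs came from 1 of 20 cells. Cycling cells followed at 251, 244 and 189 CPM, where 93.2% of the 74 WT CD UMIs and 56.3% of the 190 KO HFD UMIs came from 1 cell each. Endothelial-like cells stood at 77.1, 149.99 and 150.4 CPM.

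*Fbn2* (ENSMUSG00000024598, chromosome 18), the fibrillin best known from developing tissue, was close to the limit of detection. It had 81, 81 and 76 UMIs in FAP-like cells of WT CD, WT HFD and KO HFD, or 4.11, 4.33 and 3.62 CPM. It was found in 2.43%, 2.94% and 2.17% of FAP-like cells, against 0 of 426, 146 and 100 B cell-like cells, which allow shares of cells with a UMI of up to 0.862%, 2.49% and 3.62%. These limits rest on few cells of differing depth and are not used to separate the classes. T or NK-like cells had 5 UMIs of it in all, and their levels overlapped those of FAP-like cells.

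*Mfap2* (ENSMUSG00000060572, chromosome 4 from 141010418 to 141015984) stood at 82.4, 86.2 and 90.9 CPM in FAP-like cells of WT CD, WT HFD and KO HFD, above every value of every other class among the 14. Mesothelial-like cells came next with a mean of 49.5 CPM. *Mfap5* (ENSMUSG00000030116, chromosome 6 from 122505845 to 122529290) stood at 1803, 2313 and 2037 CPM in FAP-like cells, and its highest value elsewhere was 1478 CPM in the KO HFD tenocyte-like cells. The pair of glycoprotein genes thus had the same leading class, whose 3 library values did not overlap those of the next class. For *Mfap2* the other classes rest on few UMIs. In WT CD, WT HFD and KO HFD these were 25, 31 and 34 in mesothelial-like cells and 16, 16 and 2 in tenocyte-like cells.

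*Mfap4* (ENSMUSG00000042436, chromosome 11 from 61485431 to 61488900) stood at 720.02, 808 and 792 CPM in FAP-like cells of WT CD, WT HFD and KO HFD. In tenocyte-like cells it was 796, 1169 and 516 CPM, so those cells had both the highest and the lowest of the 6 values, and the order of the classes was not separated. With called doublets left out, the tenocyte-like mean was 1109 in place of 827 CPM. The apparent *Mfap4* signal of Schwann-like cells, 716 CPM in KO HFD and 0 in both WT libraries, came from 63 UMIs of 1 cell.

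*Eln* (ENSMUSG00000029675, chromosome 5 from 134702593 to 134747323), the elastin gene, stood at 229, 211 and 235 CPM in FAP-like cells of WT CD, WT HFD and KO HFD. Tenocyte-like cells came next at 182, 131 and 75.5 CPM, below FAP-like cells in every library, with counting intervals that overlapped those of FAP-like cells in WT CD. Lymphatic-like cells (48.4, 152 and 81.3 CPM), endothelial-like cells (78.8, 118 and 81.8 CPM) and mesothelial-like cells (88.4, 75.4 and 50.7 CPM) overlapped each other. In WT HFD 1 of 128 lymphatic-like cells held 51 of the 129 *Eln* UMIs. Mural-like cells, the smooth muscle cells and pericytes of vessels, were few (73 cells). The 38 of them with at least 5 UMIs of the smooth muscle myosin gene *Myh11* had 104 CPM of *Eln* (95% interval 70.8 to 146), and the other 35 cells had 19.1 CPM (2.32 to 69.1). These rest on 34 UMIs, of which 10 in WT HFD and 8 in KO HFD came from 1 cell each. Without WT HFD the values were 82.5 CPM (45.1 to 138) and 16.4 CPM (0.416 to 91.5), and the intervals overlapped.

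The fibulins divided among classes. *Fbln1* was 878, 719.7 and 993 CPM in mesothelial-like cells of WT CD, WT HFD and KO HFD, against 574, 464 and 486 CPM in FAP-like cells, and these ranges did not overlap. *Fbln2* (ENSMUSG00000064080, chromosome 6 from 91212455 to 91272540) was 1054, 1177 and 1039 CPM in FAP-like cells and 589, 633 and 720 CPM in endothelial-like cells. *Fbln5*, which binds elastin and is known to be needed for its assembly into fibres, was 483, 532 and 484 CPM in endothelial-like cells and 252, 337 and 312 CPM in FAP-like cells. Endothelial-like cells thus exceeded FAP-like cells for *Fbln5* in every library and fell below them for *Fbln2*.

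At the finer clustering, endothelial-like cells held a cluster led by *Rbp7*, *Stmn2*, *Sox17* and *Sema3g* and one led by *Aqp1*, *Plvap*, *Adgrl4* and *Vwf*. *Fbln5* was 672, 889 and 754 CPM in WT CD, WT HFD and KO HFD in the *Sox17* cluster and 23.8, 51.7 and 62.6 CPM in the *Vwf* cluster. *Sox17* is known from arterial endothelium. Another, smaller cluster, led by *Rflnb* and *Adgrf5*, lay between these in mean, at 83.6, 123 and 425 CPM. *Fbln2* was 651, 789 and 791 CPM in the *Sox17* cluster and 411, 429 and 365 CPM in the *Vwf* cluster. In the *Rflnb* cluster it was 585, 400.3 and 1668 CPM, and that KO HFD value was the highest of the 9. *Mfap5* and *Fbn1*, both highest in FAP-like cells, were 1603 and 599.7 CPM in the same 37 KO HFD cells. In WT HFD they were 61.6 and 123 CPM in that cluster, whose median depth was 810 UMIs. Of the 757 KO HFD *Fbln2* UMIs of endothelial-like cells, 81 came from 1 cell. The part of FAP transcripts in the *Rflnb* cluster values was not tested. *Eln* levels did not separate the *Sox17* and *Vwf* clusters, at 79.6, 88.8 and 64.0 CPM against 64.5, 174 and 76.2 CPM. In mural-like cells with at least 5 *Myh11* UMIs, *Fbln5* was 294 CPM (237 to 361), against 57.4 CPM (21.1 to 125) in the others. The former value rested on WT HFD, at 126 CPM in WT CD, 509 CPM in WT HFD and 115 CPM in KO HFD. Without WT HFD these values were 118 CPM (72.0 to 182) and 32.8 CPM (3.98 to 119), and the intervals overlapped.

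*Emilin1* (ENSMUSG00000029163, chromosome 5 from 30913402 to 30921277) was 56.2, 63.2 and 57.7 CPM in FAP-like cells of WT CD, WT HFD and KO HFD. Tenocyte-like cells had 56.1, 74.8 and 23.8 CPM, on 38 UMIs in all, and overlapped them. Mural-like cells had 43.0, 38.2 and 43.5 CPM on 3, 7 and 7 UMIs, with counting intervals that overlapped those of FAP-like cells in every library.

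B cell-like cells, which are not known to make elastic fibres, give the background measured in the same way. They had a UMI of *Mfap5* in 22 of 426 cells in WT CD, 6 of 146 in WT HFD and 4 of 100 in KO HFD, at median depths of 9196, 6880.5 and 4725.5 UMIs. Single cells held 43 of the 180 *Mfap5* UMIs in WT CD and 31 of the 66 in KO HFD, and whether these came from free RNA or doublets was not tested. FAP-like cells had one in 96.6%, 98.8% and 97.9%. After each cell was thinned to 3000 UMIs the FAP-like shares of *Mfap5* were 91.5%, 95.6% and 93.4%, and the B cell-like shares 2.18%, 2.99% and 4.82%. For *Eln* the thinned FAP-like shares were 30.1%, 29.98% and 32.4%, and for *Emilin1* 15.6%, 17.5% and 14.1%, with B cell-like shares of at most 1.20% for both. The B cell-like CPM was at most 12.9% of the FAP-like CPM of the same gene and library, the highest being that of *Emilin1* in KO HFD.

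FAPs are a mixed population, and the 10 genes did not peak in the same cells. FAP-like cells were reclustered into 17 clusters, of which 14 were assigned to 7 states by short gene lists and are called by those genes. The other 3 clusters (1451 cells) stayed uncalled. In 5 of the 14 clusters (1331 cells) none of the genes of the state was among the 10 leading genes of the cluster. *Fbn1*, *Mfap5* and *Fbln2* had their highest mean in the *Dpp4 Sema3c* state, where the background share was 15.4% of 9683 genes. *Fbn2*, *Mfap2*, *Mfap4* and *Fbln1* had theirs in the *Fmod Sfrp2 Tnmd* state (background 16.4%). *Fbn2*, with 238 UMIs in FAP-like cells, did not reach the minimum of 300 UMIs given above. *Eln* was highest in the *Sfrp4 Spon2* state (background 9.39%), *Fbln5* in the *Gdf10 Rbp4 Penk* state (4.53%) and *Emilin1* in the *Dio2 Pthlh Col8a1* state (19.0%). Since the states come from clustering the same cells, the levels by state are descriptions.

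**Figure D2:**
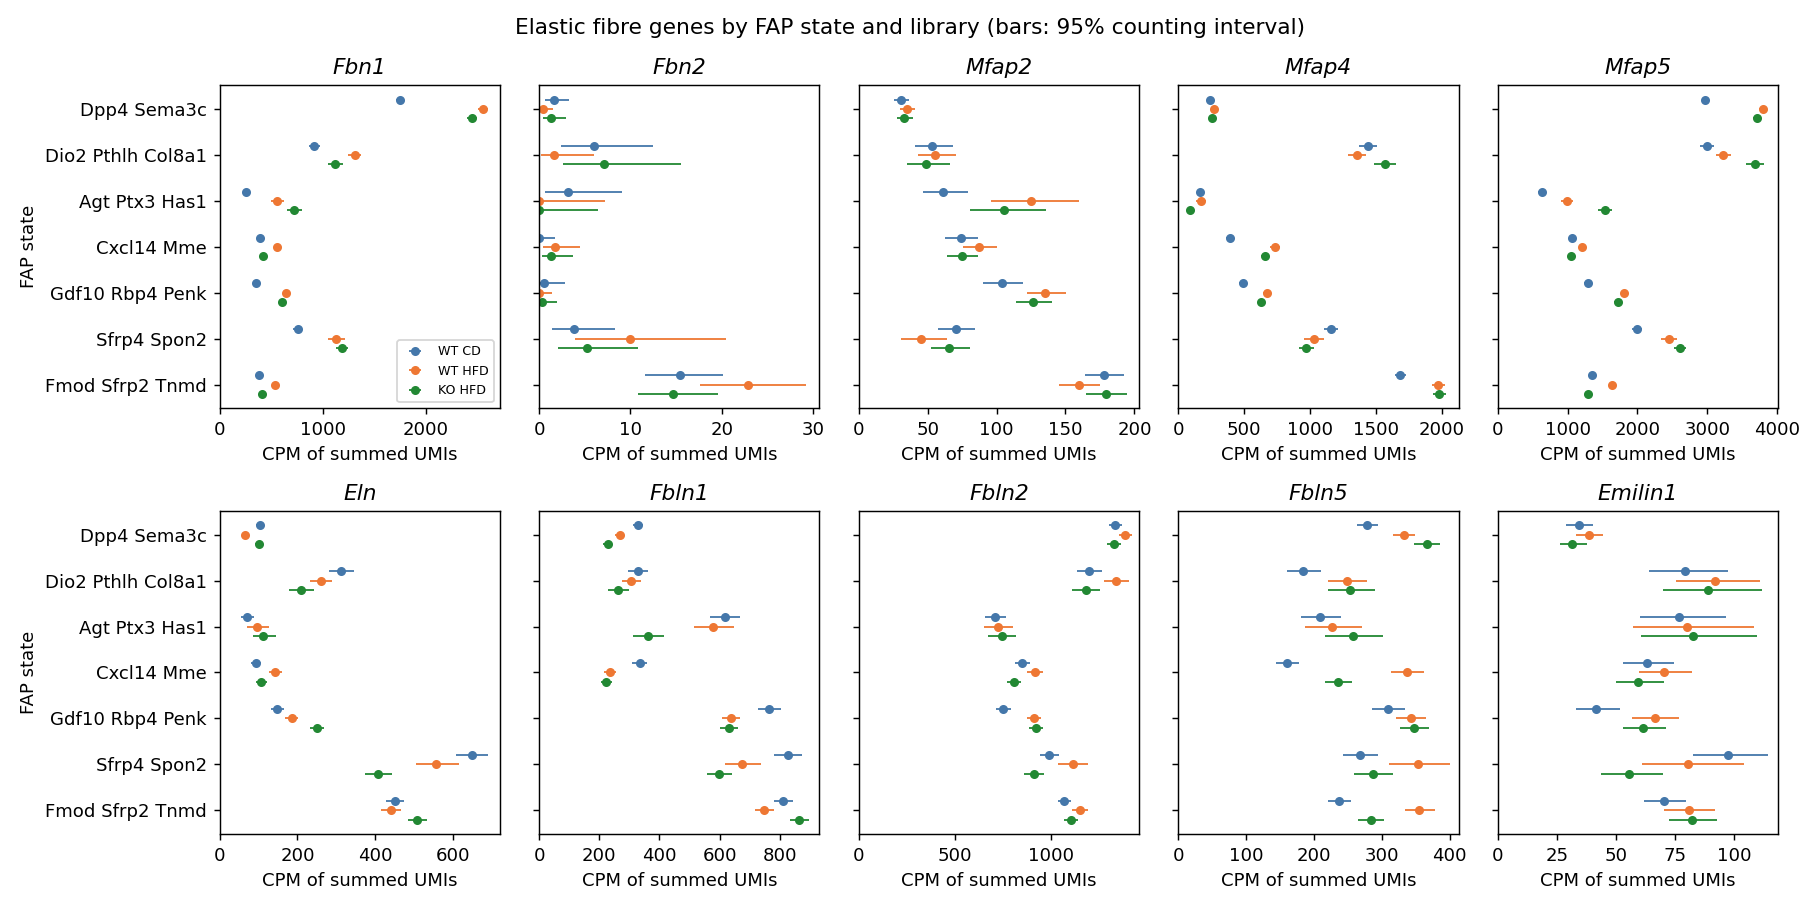
CPM of summed UMIs (x axis, from 0) for each gene in 7 FAP states (y axis), with 1 point per library (blue WT CD, orange WT HFD, green KO HFD) and bars for the 95% counting interval. *Fbn1* and *Mfap5* are highest in the *Dpp4 Sema3c* state, where *Mfap2*, *Eln* and *Emilin1* have their lowest mean.

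In the *Dpp4 Sema3c* state *Fbn1* was 1746 CPM in WT CD, 2554 CPM in WT HFD and 2447 CPM in KO HFD, above every value of the other states, whose mean was 682 CPM. *Mfap5* was 2968, 3791 and 3709 CPM there and overlapped the *Dio2 Pthlh Col8a1* state (2995, 3227 and 3680 CPM). *Fbln2* also overlapped between these states and spread only 1.86-fold from the highest to the lowest state mean. The same *Dpp4 Sema3c* cells had the lowest state mean of *Mfap2* (32.9 CPM), *Eln* (89.8 CPM) and *Emilin1* (34.9 CPM).

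The *Fmod Sfrp2 Tnmd* state, whose naming genes *Fmod* and *Tnmd* are known from tendon, had the highest mean of 4 other members, as given above. *Mfap4* was 1685, 1974 and 1980 CPM there, and its mean was 13.2-fold that of the lowest state, *Agt Ptx3 Has1*. *Mfap2* was 178, 160 and 180 CPM, above every value of the other states. *Fbn2* was 15.4, 22.9 and 14.7 CPM there, and no other state had a mean above 6.33 CPM. *Fbn1* had its lowest state mean there (447 CPM).

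*Eln* was 648, 557 and 408 CPM in the *Sfrp4 Spon2* state of WT CD, WT HFD and KO HFD, and 451, 440 and 508 CPM in the *Fmod Sfrp2 Tnmd* state, so these states overlapped and both lay above the others. The *Sfrp4 Spon2* state joined a cluster led by *Lgals3*, *Moxd1* and *Pianp* (170 cells) and one led by *Nr4a2*, *Tnmd* and *Nr4a3* (142 cells), neither with *Sfrp4* or *Spon2* among its 10 leading genes. *Eln* was 663, 483 and 274 CPM in WT CD, WT HFD and KO HFD in the former, with no overlap of the 3 counting intervals. Single cells held 158 of 642, 64 of 141 and 49 of 244 of these UMIs, among 71, 25 and 74 cells. Without those UMIs the levels were 499.9, 264 and 219 CPM, and the counting intervals of WT HFD and KO HFD overlapped. In the latter cluster *Eln* was 624, 610.1 and 679 CPM, with overlap of all 3 intervals, and 1 of 38 WT HFD cells held 83 of the 253 UMIs. *Fbln1* overlapped between the *Fmod Sfrp2 Tnmd* state (813, 749 and 865 CPM) and the *Sfrp4 Spon2* state (827, 676 and 598 CPM). *Fbln5* was the most even of the 10 genes across states, with a 1.46-fold spread of the state means and overlap between every pair of neighbours in the order. *Emilin1* likewise did not separate its 4 highest states.

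Over 50 cluster by library points of at least 20 FAP-like cells, 7 of the 45 pairs of members had a Pearson r of log2(CPM + 1) of at least 0.7 in size. The share of all gene pairs past this size is not given, so whether that count is particular to these genes was not tested. *Fbn1* and *Mfap5* varied together (0.90), as did *Mfap4* and *Eln* (0.88), *Eln* and *Fbln1* (0.74), *Eln* and *Emilin1* (0.71), *Mfap4* and *Emilin1* (0.71) and *Fbln2* and *Fbln5* (0.71). *Fbn1* and *Mfap2* varied in opposite directions (-0.74). The points share 3 libraries, and clusters of a library share its depth, so these values describe the data and carry no p-value. Across 39 class by library points, the genes nearest in pattern among 11572 were *Fstl1*, *Col5a2* and *Ddah2* for *Fbn1* (r from 0.93 to 0.97). For *Mfap5* they were *Col1a2*, *Cd248* and *Col1a1* (0.93 to 0.96) and for *Fbln2* *Igfbp7*, *Col6a2* and *Igfbp4* (0.90 to 0.93). For *Mfap2* they were *Gpc3*, *Col14a1* and *Mn1* (0.86 to 0.89), for *Mfap4* *Thbs4*, *Cilp* and *Dnm1* (0.86 to 0.89) and for *Eln* *Tmem204*, *Igfbp3* and *Mn1* (0.82 to 0.86). For *Fbln1* they were *Clec3b*, *Dcn* and *C1ra* (0.94 to 0.96), for *Fbln5* *Lama4*, *Galnt15* and *Npr1* (0.90 to 0.93) and for *Emilin1* *Hoxb4*, *Tbc1d12* and *Anks3* (0.88 to 0.89). No nearest genes are given for *Fbn2*, which was under the minimum of 300 UMIs.

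The comparison of diets asks how FAP transcripts differ after 6 months of HFD. In WT HFD against WT CD, *Fbn1* was the only one of the 10 genes that differed by at least 1.5-fold in FAP-like cells. Its log2 ratio was 0.66 (0.63 to 0.69), with 23211 UMIs against 15490. Of 8105 genes that reached 10 CPM in at least one of the libraries, 0.642% were at least 1.5-fold higher and 0.839% at least 1.5-fold lower. *Fbn2* was under that level, so 9 members were compared. Their counting intervals lay apart and higher for 6 (background 20.5%) and apart and lower for 2 (background 6.86%), and their median log2 ratio was 0.17, against 0.08 over all genes compared.

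**Figure D3:**
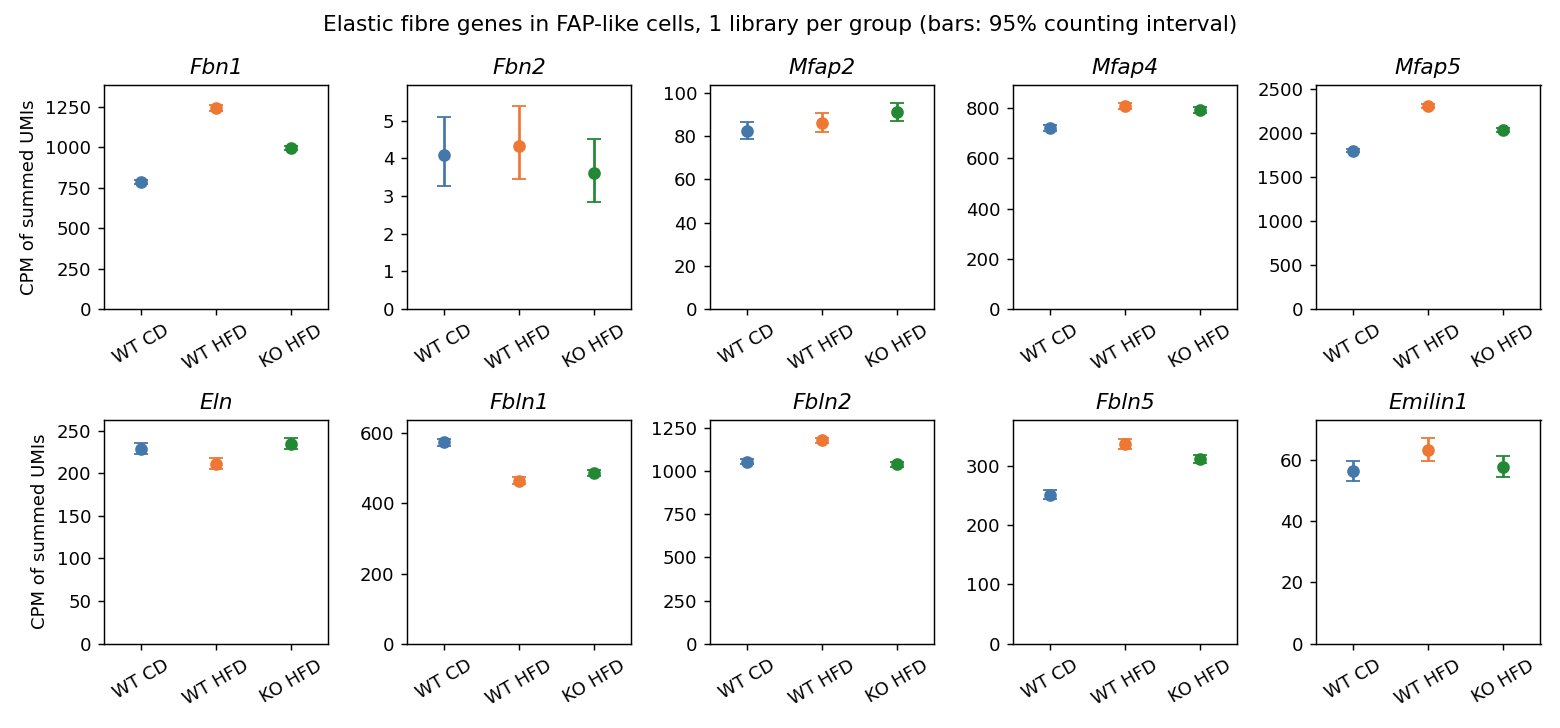
CPM of summed UMIs in FAP-like cells (y axes from 0, a scale for each gene) in the 3 libraries, with bars for the 95% counting interval, 1 library per group. *Fbn1* runs from 785 CPM in WT CD to 1242 CPM in WT HFD and 993 CPM in KO HFD, while *Fbln1* is highest in WT CD (574 CPM).

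Higher in WT HFD with intervals apart were *Fbn1*, *Fbln5* (log2 ratio 0.42), *Mfap5* (0.36), *Mfap4* (0.17), *Fbln2* (0.16) and *Emilin1* (0.17). *Fbln1* was lower at -0.31 and *Eln* at -0.12, and the intervals of *Mfap2* overlapped (0.07). Scaled by TMM factors instead, the 9 genes kept these signs except that *Mfap2* came to -0.01, while the median over all genes moved from 0.08 to 0.01. Without the *Fmod Sfrp2 Tnmd* state *Fbn1* was 0.65, *Mfap2* 0.23 and *Eln* -0.09, and without all 3 clusters led by *Tnmd*, an alternative chosen after seeing the data, 0.65, 0.27 and -0.05. Set against WT CD and KO HFD combined, of which KO HFD was also on HFD, *Fbn1* in WT HFD was 0.48, under 1.5-fold.

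Within the states, *Fbn1* was higher in WT HFD in 7 of 7, with log2 ratios from 0.50 to 1.12, and *Mfap5* in 7 of 7 (0.11 to 0.65), each with intervals apart in every state. Of 6983 genes compared in all 7 states, 0.215% met this. Like the other background shares for intervals apart, that share is not matched for level, and intervals are narrower for genes with more UMIs. *Fbln2* (0.03 to 0.28) and *Fbln5* (0.12 to 1.07) were also higher in 7 of 7 states, as were 10.5% of the genes compared. *Fbln1* was lower in 7 of 7 (-0.50 to -0.09), as were 2.23%. The highest ratios of *Fbn1* and *Mfap5* came from the *Agt Ptx3 Has1* state, with 49 WT HFD cells. Single cells there held 54 of the 286 WT HFD *Fbn1* UMIs and 64 of the 505 WT HFD *Mfap5* UMIs. The next highest ratios were 0.85 and 0.49, both in the *Gdf10 Rbp4 Penk* state. The *Dpp4 Sema3c* state, which has the most *Fbn1*, made up 19.2% of FAP-like cells in WT CD, 22.3% in WT HFD and 16.4% in KO HFD. With the states held at their pooled shares, also chosen after seeing the data, the ratio of *Fbn1* was 0.62 and that of *Eln* turned from -0.12 to 0.10.

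**Figure D4:**
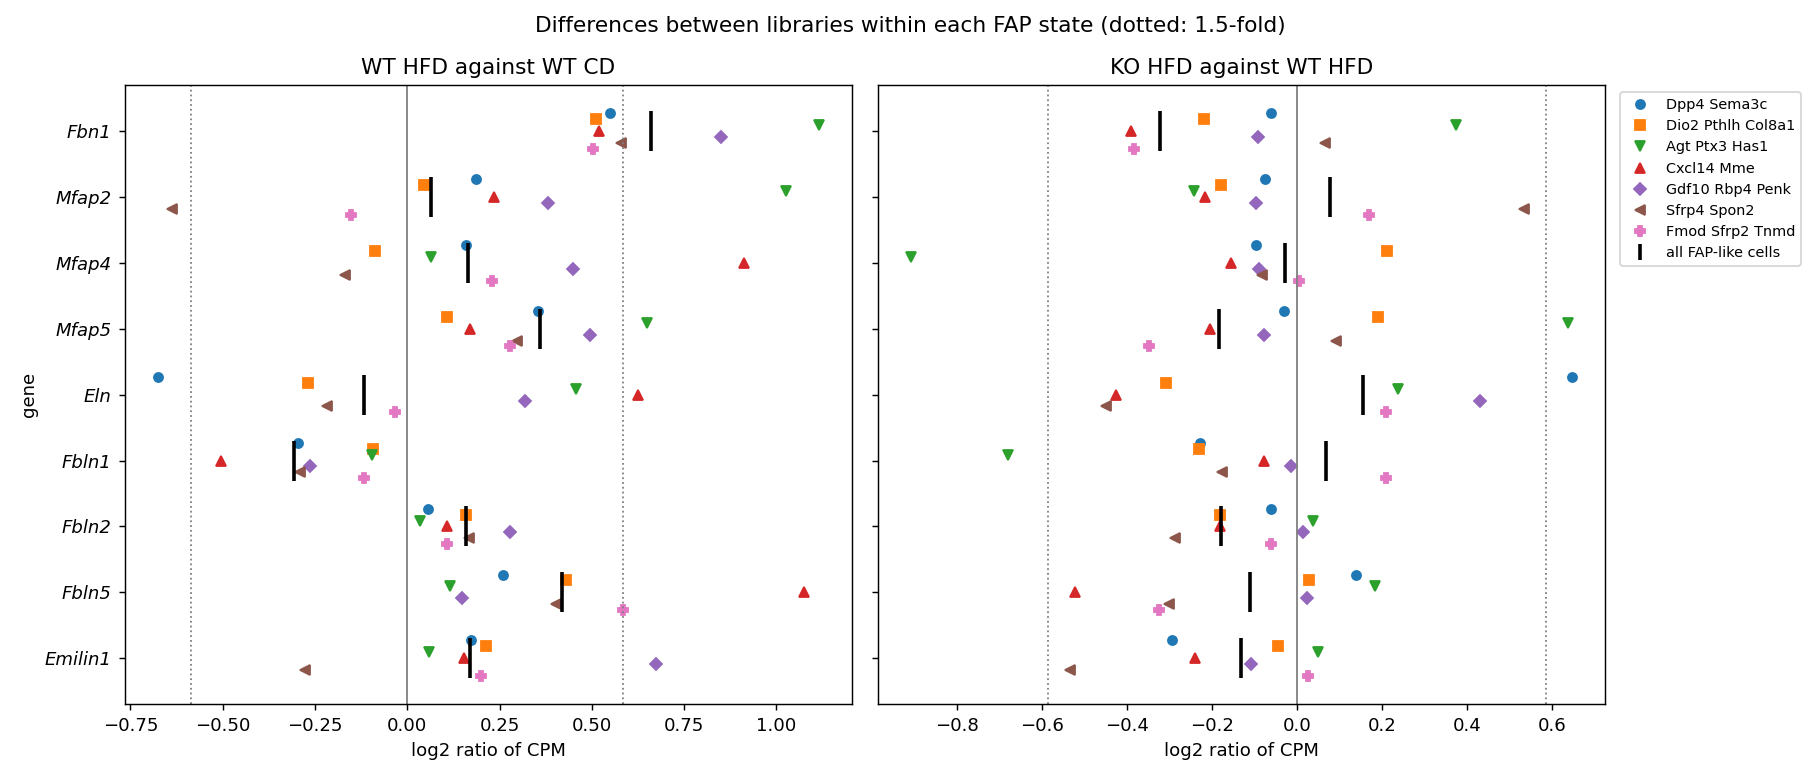
Log2 ratio of CPM (x axis) for 9 genes in WT HFD against WT CD (left) and KO HFD against WT HFD (right), with 1 symbol per FAP state, a black bar for all FAP-like cells and dotted lines at 1.5-fold. On the left *Fbn1*, *Mfap5*, *Fbln2* and *Fbln5* lie above 0 in 7 of 7 states and *Fbln1* below 0 in 7 of 7, while *Eln* spreads from -0.68 to 0.62.

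*Fbln5* differed most between these libraries in the *Cxcl14 Mme* state, at 160.4 CPM in WT CD (95% interval 144 to 178) and 338 CPM in WT HFD (314 to 362), a log2 ratio of 1.07. *Mfap4* stood there at 390.2 and 734 CPM (0.91). *Eln* went opposite ways in different states, with intervals apart and higher in 2 of 7 and lower in 1. It was 93.0 CPM in WT CD and 143 CPM in WT HFD in the *Cxcl14 Mme* state, and 103 and 64.7 CPM in the *Dpp4 Sema3c* state. In both pairs the counting intervals lay apart, higher in the former state (background 4.22%) and lower in the latter (3.15%). In the uncalled clusters *Eln* was 139, 219 and 196 CPM in WT CD, WT HFD and KO HFD.

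The comparison of genotypes asks how FAPs of *Thbs1* knockout mice differ from WT after the same HFD. It shares the WT HFD library with the diet comparison, so the values of both comparisons are not independent. None of the 9 genes reached 1.5-fold in KO HFD against WT HFD, where 0.543% of 8102 genes were higher and 0.259% lower by that much. *Fbn1* was lower at -0.32 (-0.35 to -0.30), with 20856 UMIs against 23211. Set against both WT libraries combined, it was -0.02. *Mfap5* (-0.18), *Fbln2* (-0.18) and *Fbln5* (-0.11) were also lower with intervals apart, for 4 genes in all (background 11.6%). *Eln* (0.15) and *Fbln1* (0.07) were higher with intervals apart (background 7.37%). Some of these directions turned with the processing: *Eln* came to -0.05 and *Mfap5* to 0.01 with the FAP states weighted alike, *Fbln5* to 0.09 against both WT libraries combined, and *Fbln1* to -0.11 with the states weighted alike. *Mfap4* (-0.03), *Emilin1* (-0.13) and *Mfap2* (0.08) had overlapping intervals, and *Mfap4* changed sign under TMM factors (0.01). The median over the 9 genes was -0.11, against -0.04 over all genes compared.

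Across the states, *Fbn1* was lower in KO HFD in 5 of 7 and higher in 2, up to 0.37 in the *Agt Ptx3 Has1* state, where 1 of 49 cells held 54 of the 286 UMIs in WT HFD and 1 of 52 held 75 of the 411 in KO HFD. In the *Dpp4 Sema3c* state it was 2554 CPM in WT HFD and 2447 CPM in KO HFD (-0.06). *Fbln1*, higher over all FAP-like cells, was lower in 6 of 7 states and came to -0.01 with the states held at their pooled shares. *Eln* was higher in 4 of 7 states, with 0.65 in the *Dpp4 Sema3c* state, and lower in 3. *Mfap5* was lower in 4 of 7 and higher in 3, up to 0.64 in the *Agt Ptx3 Has1* state, where 1 cell held 200 of the 871 KO HFD UMIs. *Fbln5*, lower over all FAP-like cells, was higher in 4 of 7 states (-0.52 to 0.18). *Mfap4* was lower in 5 of 7 states and higher in 2. The shares of all genes with such counts of states are not given, so whether the counts are particular to the members was not tested. The median log2 ratio over all genes compared was itself below 0 in each of the 7 states, from -0.11 to -0.01. In the *Agt Ptx3 Has1* state *Mfap4* (172 CPM in WT HFD and 91.5 CPM in KO HFD, -0.91) was at least 1.5-fold lower with intervals apart. So was *Fbln1* there (578 and 361 CPM, -0.68). The share of all genes that passed in that state is not given, so whether these calls are particular to the members was not tested. For *Mfap4* 1 of 49 cells held 25 of the 88 WT HFD UMIs.

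*Fbn1* lies 7.17 Mb from *Thbs1* (chromosome 2 from 118111876 to 118127133), and the knockout allele is named for a 129S2 origin on a B6 background. Of 76 genes within 10 Mb of *Thbs1* and with at least 10 CPM in FAP-like cells, 30.3% had intervals apart in KO HFD against WT HFD and 6.58% differed by at least 1.5-fold. Over all 8102 genes these shares were 19.0% and 0.802%. The 5 genes past that fold, named after their values were seen, were *Eif3j1* (101 CPM in WT HFD and 24.4 CPM in KO HFD), *Tmem87a*, *Duoxa1*, *Shf* and *Slc30a4*. The part of the sequence around *Thbs1* in the *Fbn1* value was not tested.

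Outside FAP-like cells the counts were small, and single cells weighed in many of them. In endothelial-like cells *Fbn1* (77.1 and 149.99 CPM) and *Eln* (78.8 and 118 CPM) were at least 1.5-fold higher in WT HFD than in WT CD, as were 9.98% of genes compared. *Mfap4* (61.2 and 23.6 CPM) was that much lower, as were 7.9%. For *Fbn1* 41.3% of the WT HFD UMIs came from 1 cell, and *Mfap4* was found in 8, 6 and 9 of these cells in WT CD, WT HFD and KO HFD. In KO HFD against WT HFD, *Mfap5* (72.5 and 241 CPM), *Mfap4* (23.6 and 63.8 CPM), *Mfap2* and *Fbln1* were at least 1.5-fold higher in these cells, against a background of 9.84%, and the intervals of *Mfap2* and *Fbln1* overlapped. For *Mfap5* 64.0% of the WT HFD UMIs and 31.6% of the KO HFD UMIs came from 1 cell each. Of the 253 KO HFD *Mfap5* UMIs 147 lay in the 37 cells of the *Rflnb* and *Adgrf5* cluster. In B cell-like cells of WT HFD and KO HFD, *Mfap5* was 44.5 and 81.6 CPM, *Fbln1* 9.42 and 44.5 CPM and *Mfap2* 5.14 and 7.42 CPM, and *Fbln1* in endothelial-like cells of KO HFD was 46.6 CPM. The part of this background in the endothelial-like values was not tested. *Fbln5* and *Fbln2*, found in 118 or more endothelial-like cells of each library, differed by less than 1.5-fold in both comparisons.

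In mesothelial-like cells *Fbln1* was 878 CPM in WT CD (794 to 967), 719.7 CPM in WT HFD (667 to 776) and 993 CPM in KO HFD (911 to 1079). It was found in 39 of 40, 82 of 86 and 50 of 51 of these cells. The intervals lay apart in both comparisons, where 1.94% of genes were lower with HFD in this way and 1.91% were higher in KO HFD. With HFD, 8 of 8 members compared were lower in these cells, 4 of them with intervals apart (*Fbln1*, *Fbln2*, *Mfap4* and *Mfap5*), and the median log2 ratio was -0.36, against 0.04 over all genes compared. *Mfap2* (53.9 and 32.9 CPM) and *Mfap4* (33 UMIs and 1 UMI) were at least 1.5-fold lower, as were 13.5% of genes. For *Mfap4* 28 of the 33 UMIs in WT CD came from 1 of 40 cells. In KO HFD against WT HFD 5 of 8 were higher, *Fbln1* alone with intervals apart, with a median of 0.09. *Mfap2* (32.9 and 61.6 CPM) and *Emilin1* (9.55 and 16.3 CPM, 9 UMIs each) were at least 1.5-fold higher, as were 12.8% of genes, and their intervals overlapped.

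In the 66 tenocyte-like cells the members went both ways in KO HFD against WT HFD. *Fbn1*, *Mfap5* and *Fbln2* were at least 1.5-fold higher, where 24.7% of genes were, and *Mfap2*, *Mfap4*, *Eln*, *Fbln1* and *Emilin1* were that much lower, where 25.5% were. In WT HFD against WT CD, *Mfap5* and *Fbln2* were at least 1.5-fold lower, where 26.3% of genes were. Each library had 24 or fewer of these cells.

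The genes that act beside these 10 were followed through a list of 35. Of them 25 had at least 10 CPM in FAP-like cells of WT CD or WT HFD. With HFD 19 of the 25 were higher, 12 with intervals apart, and 6 lower, 2 with intervals apart, and the median log2 ratio was 0.15. Over all genes compared, 20.5% were apart and higher and 6.86% apart and lower, with a median of 0.08. One gene was at least 1.5-fold higher and one that much lower, where 0.642% and 0.839% of all genes compared were. *Adamtsl2*, which encodes a fibrillin-binding protein, went from 10.1 to 19.3 CPM (0.94, 0.68 to 1.19) and was 16.3 CPM in KO HFD. *Ltbp2*, a latent TGF-β binding protein of microfibrils, went from 12.2 to 7.22 CPM (-0.75, -1.07 to -0.44) and was 7.86 CPM in KO HFD.

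**Figure D5:**
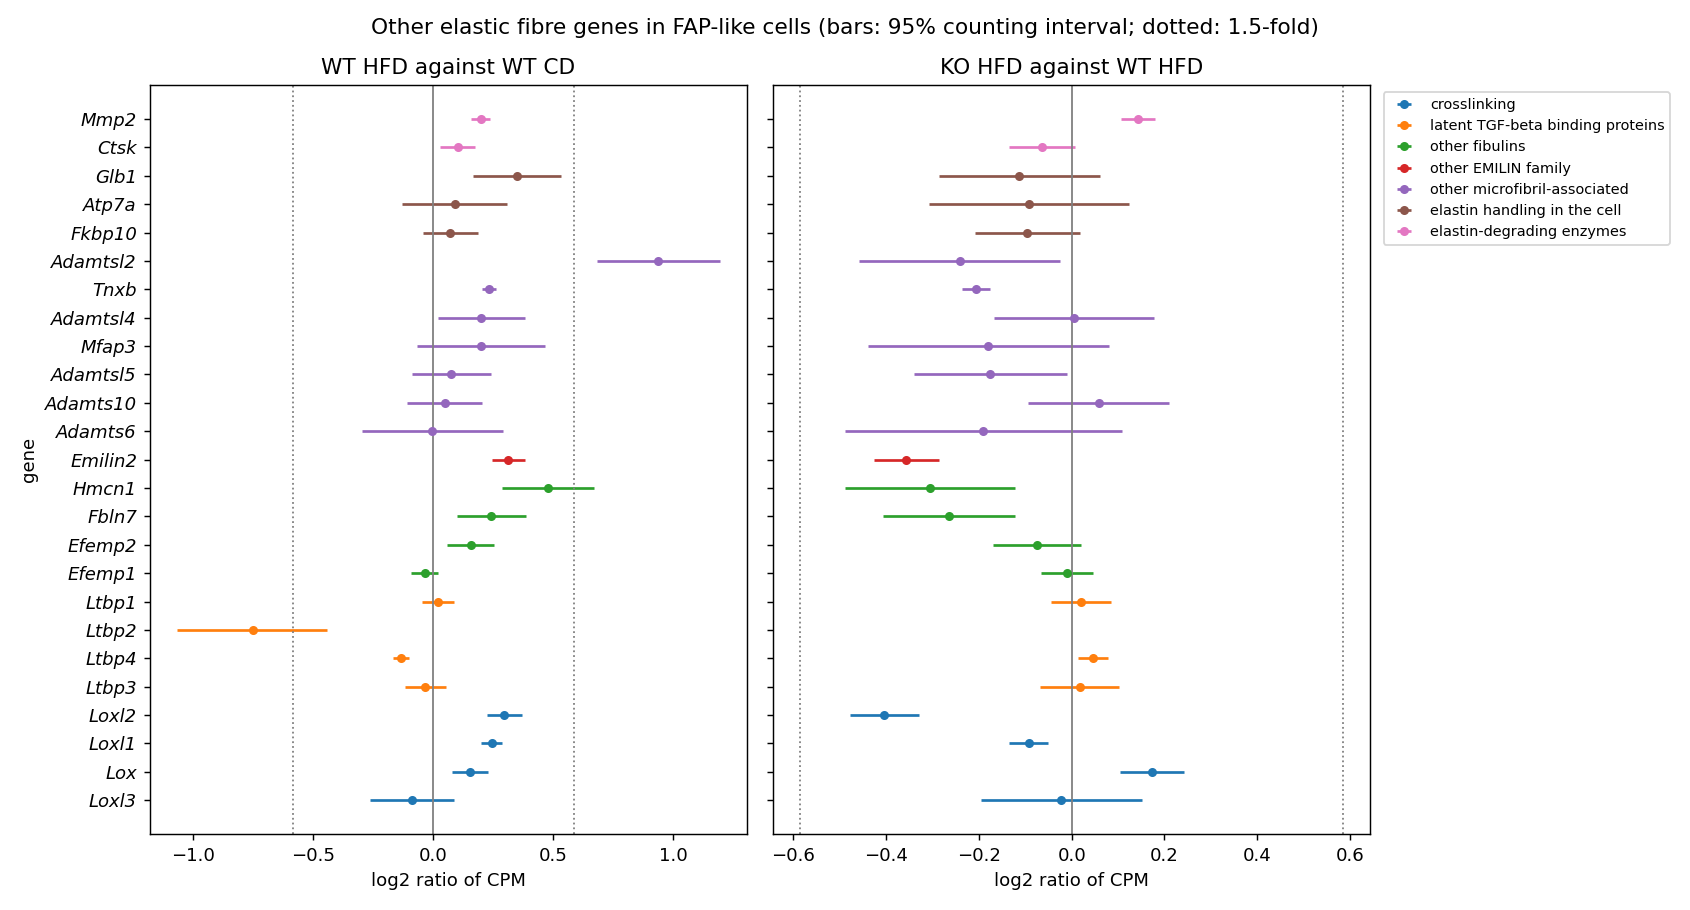
Log2 ratio of CPM in FAP-like cells (x axis) for 25 other elastic fibre genes (y axis, coloured by group) in WT HFD against WT CD (left) and KO HFD against WT HFD (right), with bars for the 95% counting interval and dotted lines at 1.5-fold. On the left *Adamtsl2* lies beyond 1.5-fold higher and *Ltbp2* beyond 1.5-fold lower, and on the right no gene reaches 1.5-fold.

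Among the crosslinking enzymes *Loxl1* had the most UMIs, at 392, 463 and 435 CPM in FAP-like cells of WT CD, WT HFD and KO HFD. *Lox*, *Loxl1* and *Loxl2* were higher with HFD with intervals apart. *Ltbp4*, which is known to work with *Fbln5* in elastic fibre assembly, was 820, 747 and 771 CPM, lower with HFD (-0.13), and its highest class was lymphatic-like cells (mean 1181 CPM). *Efemp1*, another fibulin, was 268, 261 and 259 CPM with overlapping intervals, and its highest class was mesothelial-like cells (1154 CPM), as for *Fbln1*. *Emilin2* was 153, 190 and 148 CPM and was highest in neutrophil-like cells (496 CPM). *Tnxb*, the tenascin that ties collagen to elastic fibres, was 821, 965 and 837 CPM, and *Fkbp10*, a chaperone of collagen and tropoelastin, was 63.5, 66.7 and 62.4 CPM. *Mmp2*, a protease able to cleave elastin, was 512, 587 and 648 CPM.

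In KO HFD against WT HFD 24 of the 35 genes could be compared, and none reached 1.5-fold. Of them 7 were higher, 2 with intervals apart (*Lox*, 0.17, and *Mmp2*, 0.14), and 6 were lower with intervals apart, against backgrounds of 7.37% and 11.6%. The latter were *Loxl2* (-0.40), *Emilin2* (-0.36), *Hmcn1* (-0.31), *Fbln7* (-0.26), *Tnxb* (-0.21) and *Loxl1* (-0.09). The median over the 24 genes was -0.09, against -0.04 over all genes compared.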

How the data were processed

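The authors mapped reads to mouse GRCm38 (mm10) and counted UMIs per gene and barcode with Cell Ranger (version 6.1.1 per the labels), and the deposited values are whole-number counts. From those counts, cells were clustered in scanpy 1.11.5 (2000 variable genes, 30 components, Leiden resolution 1) and clusters were named by marker scores. FAP-like cells were reclustered without 109 genes that differed by 1.5-fold between libraries. Scrublet marked 1.26%, 1.09% and 1.33% of barcodes as doublets in WT CD, WT HFD and KO HFD, and these stayed in except in 1 alternative. UMIs were summed per class, state and library and divided by their total. Gene positions are from GENCODE on GRCm38. With 1 library per group, a call is 1.5-fold among genes that reached 10 CPM in one of the libraries, and no test was run. TMM factors came from edgeR 4.0.16. The calculation of ratios and intervals was tested on simulated data. The 10 genes and all lists were chosen with earlier results of these data known. Named were the 10 genes, *Thbs1*, and listed genes past 1.5-fold with intervals apart. Named too were the most counted gene of each list and the 3 genes nearest in pattern to each member except *Fbn2*. Others named, such as those for the mural-like and endothelial-like subsets, the genes near *Thbs1* and further listed genes with intervals apart, were added after values were seen.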

Additional observations from a re-analysis of the deposited data

Results flagged for a closer look

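*Eln* in FAP-like cells moved in opposite directions in different states between WT HFD and WT CD. In the *Cxcl14 Mme* state its log2 ratio was 0.62, and in the *Dpp4 Sema3c* state -0.68, each with counting intervals apart. Single cells held up to 31 of the 326 WT HFD and 10 of the 200 WT CD UMIs in the former state. In the latter state they held up to 19 of the 306 and 29 of the 455. Ratios without these cells are not given. With 1 library per group, the difference between these states was not tested.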

How the results depend on the processing

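Counts past 1.5-fold, medians and gene ratios in FAP-like cells were recomputed under up to 13 alternatives for each comparison, 2 of which (states at their pooled shares, and no FAP clusters led by *Tnmd*) were chosen after seeing the data. Of 258 recomputed log2 ratios of single genes, 178 stayed within their counting interval, 70 moved beyond it and 10 reversed, meaning that the sign changed where the counting interval of the reported ratio left out 0. In all 22 changed sign, and for the other 12 that interval held 0. Of recomputed levels, 7 of 30 by cell class and 5 of 8 by FAP state moved, and 0 reversed. A k-means clustering of FAP-like cells gave 5 clusters. None was called *Gdf10 Rbp4 Penk* or *Dio2 Pthlh Col8a1*, so the leading states of *Fbln5* and *Emilin1* depend on the clustering. Its *Sfrp4 Spon2* cluster held 1835 cells, against 312 in that state in the main clustering. In WT HFD against WT CD, the median over all 10 genes was 0.16 and came to 0.0899 with TMM factors, 0.10 with median-of-ratios factors, 0.29 at Leiden resolution 2, 0.20 without the *Fmod Sfrp2 Tnmd* state, 0.22 without the clusters led by *Tnmd* and 0.28 at pooled state shares. Without that state, and without those clusters, 1 gene, *Fbn2*, was lower by 1.5-fold in this comparison and 1 higher, again *Fbn2*, in KO HFD against WT HFD. These counts cover all 10 genes with no minimum level, and *Fbn2* then had 28, 17 and 29 UMIs in WT CD, WT HFD and KO HFD without the state and 26, 10 and 27 without the clusters, under 2 CPM. With WT HFD set against WT CD and KO HFD combined, the count of genes at least 1.5-fold higher was 0, with *Fbn1* at 0.48, and the median of KO HFD against both WT libraries moved from -0.12 to -0.0150. In KO HFD against WT HFD, that median came to -0.066 without the *Fmod Sfrp2 Tnmd* state and -0.079 without the clusters led by *Tnmd*. It was -0.083 with TMM factors and -0.13 at Leiden resolution 2. *Fbn1* was higher with HFD under 13 of 13 alternatives (0.48 to 0.69). *Eln* with HFD reversed to 0.00018 with states weighted alike and to 0.098 at pooled shares. In KO HFD against WT HFD, *Eln* reversed to -0.0196 at resolution 2 and -0.0547 with states weighted alike. *Fbln1* reversed to -0.0694 at resolution 2, -0.11 with states weighted alike, -0.0065 at pooled shares and -0.10 against the other 2 libraries. *Mfap5* reversed to 0.0145 with states weighted alike and *Fbln5* to 0.0893 against the other 2 libraries. At resolution 2 several FAP-like clusters stayed unnamed, which leaves fewer cells in the class. Depth limits *Fbn2*, at 76 to 81 UMIs per library in FAP-like cells, and the mural-like and tenocyte-like values. No paired analysis was possible because each group is 1 library, and for the same reason no comparison of groups could be repeated with a library left out.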
